A study of Homo sapiens with 60 samples.

Results

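Yijung-tang and Banhasasim-tang at their low dose, 20 µg/mL of water extract for 24 h, were compared with the vehicle in SW1783 cells, an established human astrocytoma line. The libraries were chosen by their titles alone: 3 of Yijung-tang low dose, 3 of Banhasasim-tang low dose and 3 of vehicle, so 6 treated libraries and 3 vehicle libraries among the 60 of the series. The vehicle was DMSO, at 0.1% in the sample labels and 2% in the series' design text, and the labels do not give the DMSO content of the extract cultures. The series measured gene expression by RNA sequencing after 20, 100 or 500 µg/mL of herbal water extracts, called low, medium and high dose. Sample codes place both formulas in set 7, the vehicle in set B1 and the 4 other extracts with replicates in sets 5 and 6. The labels do not explain the codes, so treatment and code set cannot be told apart in a comparison with the vehicle. In all, 3 checks that involve no vehicle library were therefore made: the formulas against each other, which share set 7, the 6 low-dose libraries against the 12 low-dose libraries of Citri Unshius Pericarpium, Cimicifugae Rhizoma, Bupleuri Radix and Aconiti Lateralis Radix Preparata, and high against low dose within each formula. The check against the other low doses compares set 7 with sets 5 and 6. Extract and code set cannot be told apart there either. The labels do not say whether replicates were separate cultures, so the p-values may rest on technical spread alone.

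Yijung-tang is a classical decoction of ginseng, licorice, ginger and Atractylodes rhizome. Banhasasim-tang shares ginseng, licorice and ginger with it and adds Pinellia tuber, jujube, Scutellaria, rich in flavones, and Coptis, rich in berberine. Astrocytes and astrocytoma cells answer inflammatory signals through NF-kB, a transcription factor held in the cytoplasm by inhibitors such as NFKBIA until a signal destroys them. Its target genes then make cytokines (IL6), neutrophil-attracting chemokines (CXCL8, CXCL1, CXCL5), the adhesion molecule ICAM1, complement C3 and the mitochondrial superoxide dismutase SOD2. A second well-studied response runs through NRF2, which raises heme oxygenase (HMOX1) and ferritin after electrophiles or heme.

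The 6 treated libraries held 24.5 to 30.2 M counts (M, 1e6), the vehicle libraries 19.5 to 23.0 M, and the 12 other low-dose libraries 19.8 to 23.4 M, so depth differed between set 7 and the rest. Its part in the results below was not tested. Of the astrocyte and glioma markers, vimentin (VIM) had 4479, 4591 and 4487 CPM (counts scaled to library size) in Yijung-tang and 4532, 4616 and 4524 CPM in Banhasasim-tang, against 4149, 4338 and 4545 CPM in vehicle. The gap-junction gene GJA1, CD44 and SOX9 were also high. The defining astrocyte markers GFAP and AQP4 were at or near 0, in CPM without scaling between libraries: GFAP lay between 0.0667 and 0.173 CPM in Yijung-tang, 0.0743 and 0.0994 CPM in Banhasasim-tang and 0.0506 and 0.261 CPM in vehicle. S100B, ALDH1L1, SOX2, OLIG2, FABP7 and SLC1A2, also on the astrocyte list, did not pass 0.483 CPM on that scale. Fibroblast and mesenchymal markers were expressed as well, with COL1A1 between 3211 and 3546 CPM and COL1A2 between 1938 and 2196 CPM on that scale. None of the 8 tested astrocyte markers was called against the vehicle.

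At the low dose the mean of the formulas showed a broad but shallow shift against the vehicle. A gene can be called in this mean when only 1 formula differs from the vehicle. Of 17190 genes tested, 745 were higher and 929 lower in the mean of both formulas than in vehicle, which is 9.74% of the genes (edgeR quasi-likelihood test, Benjamini-Hochberg adjusted p under 0.05, the rule for every call below). The median size of the called changes was 0.17 on the log2 scale, and 254 of the rises and 102 of the falls reached 1.2-fold. Yijung-tang alone gave 468 higher and 628 lower genes, 6.38% of those tested. Banhasasim-tang alone gave 450 higher and 539 lower genes, 5.75% of those tested. These comparisons share the 3 vehicle libraries. The balance of directions depended on the filter on low counts: with no filter, 913 genes were higher and 636 lower for both formulas, 660 and 412 for Yijung-tang, and 630 and 389 for Banhasasim-tang. Their counts rested on single libraries: without vehicle library 1 they were 656 for both formulas, 419 for Yijung-tang and 425 for Banhasasim-tang, and without vehicle library 2 they were 990, 629 and 562. Without Yijung-tang library 1 or 2 its count was 710 or 369, and without Banhasasim-tang library 1 or 2 its count was 492 or 593. In RNA of whole cultures, fewer cells of a kind and less RNA per cell cannot be told apart.

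**Figure D1:**
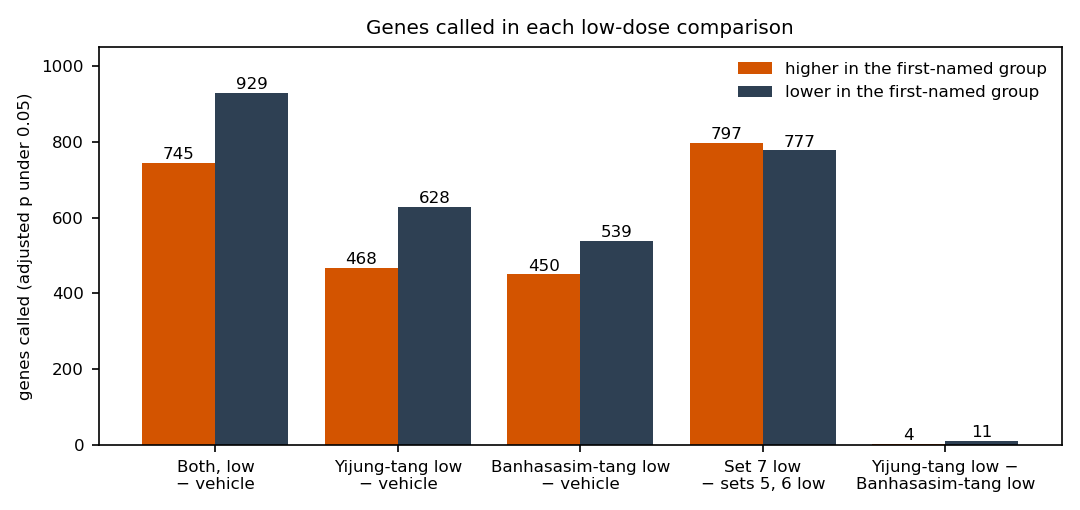
Number of genes called higher (orange) and lower (dark blue) at adjusted p under 0.05 in the first-named group of each low-dose comparison. The comparisons with the vehicle and with the other low-dose libraries hold from 450 to 929 genes each way, and the comparison of the formulas with each other holds 4 and 11.

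Against the 12 other low-dose libraries, which leave the vehicle out, many genes also differed. Extract and code set cannot be told apart in this comparison either, and depth differed too. In set 7, 797 genes were higher and 777 lower than in sets 5 and 6 at the low dose, 9.16% of those tested, with a median size of 0.11 log2 among the called genes. Of these, 743 also passed in the comparison with vehicle in the matching direction, 318 higher and 425 lower, and 2 with the opposite sign. That is 44.4% of the calls against vehicle and 47.2% of the calls against the other low doses, and both comparisons use the same 6 treated libraries, which favours an overlap. With no filter, 990 were higher and 469 lower than in the other low doses. The count of 1574 against the other low doses was 959 without Yijung-tang library 2 and 1006 without Banhasasim-tang library 1. A pair of set 5 libraries that earlier results showed to stand apart, Citri Unshius Pericarpium low 3 and Cimicifugae Rhizoma high 3, entered the shared spread. Without them the count was 2396 against the other low doses, 1658 for Yijung-tang and 1570 for Banhasasim-tang against vehicle.

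The 12 largest rises against vehicle included secreted signals and a stress transcription factor. They were picked among called genes whose 6 treated libraries all lay above the 3 vehicle libraries. The lack of overlap and the tests below therefore describe them and lend no further support. Of the 12, 10 were called higher for Yijung-tang alone and 9 for Banhasasim-tang alone, beside 2.72% and 2.62% of all genes. These calls use the libraries that picked the genes, which favours them. C4orf48 (ENSG00000243449, chr4:2041993-2043970, GRCh38), which encodes a small secreted neuropeptide-like protein, had 9.41, 10.6 and 13.1 CPM in Yijung-tang and 8.84, 8.98 and 9.95 CPM in Banhasasim-tang, against 3.93, 5.04 and 4.6 CPM in vehicle. Every treated library lay above every vehicle library, and the log2 fold change was 1.15 ± 0.240 (SE, adjusted p = 0.00104). CEBPB (chr20:50190734-50192689), a leucine-zipper transcription factor of inflammation and stress, had 51.5, 53.6 and 58.2 CPM in Yijung-tang and 52.9, 52.4 and 54.6 CPM in Banhasasim-tang, against 28.3, 35.7 and 38.8 CPM in vehicle. The groups did not overlap (log2 0.65 ± 0.114, adjusted p = 0.000161). IL6 (chr7:22725884-22732002), the cytokine that drives the acute-phase response, had 5.64, 5.34 and 5.06 CPM in Yijung-tang and 6.63, 6.79 and 7.39 CPM in Banhasasim-tang, against 4.03, 4.22 and 3.42 CPM in vehicle. Its log2 fold change was 0.64 ± 0.131 (adjusted p = 0.000876), again without overlap. For Yijung-tang alone IL6 was not called. TMEM160 had the largest change, with 14, 15.4 and 13.4 CPM in Yijung-tang and 12.4, 14.9 and 13.5 CPM in Banhasasim-tang, against 2.42, 7.24 and 8.74 CPM in vehicle (log2 1.17 ± 0.235, adjusted p = 0.000699). Vehicle library 1 was far below the other vehicle libraries for this gene.

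The other rises named by the same rule were BCYRN1, SLX1A, STAG3L1, PCSK1N, TMED7-TICAM2, IGFN1, ZFPM1 and THY1-AS1, with log2 fold changes from 0.51 to 0.95. PCSK1N encodes proSAAS, an inhibitor of the convertase that cuts prohormones, and ZFPM1 a cofactor of GATA factors. Values of SLX1A, which has a near-identical copy, of the pseudogene STAG3L1, of the read-through gene TMED7-TICAM2 and of THY1-AS1, which overlaps THY1 on the other strand, are uncertain because RSEM divides shared reads by estimate and the strand setting is not given. BCYRN1 is a noncoding RNA of Alu origin with many copies in the genome, and its level is uncertain for the same reason.

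The 12 largest falls were smaller, from 0.38 to 0.52 on the log2 scale. They were picked in the same way, with all treated libraries below the vehicle libraries, so the lack of overlap was fixed by the choice. Each formula alone had 9 of the 12 called lower, calls that the choice of genes again favours. Over all genes, 3.65% were lower for Yijung-tang and 3.14% for Banhasasim-tang. SAMD4A (ENSG00000020577, chr14:54567097-54793315), an RNA-binding repressor of translation, had 27.0, 27.1 and 26.5 CPM in Yijung-tang and 27.4, 26.7 and 25.7 CPM in Banhasasim-tang, against 39.2, 36.7 and 37.1 CPM in vehicle. The treated libraries were within 2 CPM of each other and all below the vehicle (log2 -0.49 ± 0.044, adjusted p = 1.2e-10). FGD4, an exchange factor for the small GTPase CDC42, had 6.32, 4.85 and 5.86 CPM in Yijung-tang and 5.06, 5.79 and 5.80 CPM in Banhasasim-tang, against 9.11, 7.28 and 7.82 CPM in vehicle (log2 -0.52 ± 0.092, adjusted p = 0.000179). DDIT4L, an inhibitor of mTOR signalling, had 11.9, 12.2 and 12.7 CPM in Yijung-tang and 10.2, 11.3 and 10.8 CPM in Banhasasim-tang, against 16.2, 15.4 and 13.2 CPM in vehicle (log2 -0.38 ± 0.077, adjusted p = 0.0007). The groups of both genes were apart. The rest were LIMS4, ST20-AS1, HSPD1P11, TXNRD3, A1BG, LOXL2-AS1, IFNE, PCDHA10 and SYT12. LIMS4 has a close paralog, HSPD1P11 is a pseudogene of HSPD1, PCDHA10 shares exons with its cluster, and ST20-AS1 and LOXL2-AS1 are antisense to other genes, so their values are uncertain.

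Of these 24 genes, 5 rises and 5 falls lost their call without at least 1 library. Without vehicle library 1, adjusted p was 0.17 for PCSK1N, 0.36 for ZFPM1, 0.122 for THY1-AS1, 0.144 for TMED7-TICAM2, 0.0549 for LIMS4, 0.063 for HSPD1P11, 0.12 for LOXL2-AS1, 0.127 for PCDHA10 and 0.0719 for SYT12. Without vehicle library 2 it was 0.136 for LIMS4, 0.0884 for PCDHA10 and 0.103 for SYT12. Without vehicle library 3 it was 0.171 for SLX1A, 0.0552 for THY1-AS1, 0.0624 for TMED7-TICAM2, 0.081 for LIMS4, 0.199 for LOXL2-AS1 and 0.137 for PCDHA10. Leaving out a treated library ended calls of ZFPM1 (0.0509 without Yijung-tang 3), LIMS4 (0.0543 without Banhasasim-tang 1) and LOXL2-AS1 (0.0927 without Yijung-tang 2, 0.0973 without Banhasasim-tang 2). PCDHA10 lost its call without Yijung-tang 1, 2 or 3 (0.0517, 0.0523 and 0.0647) and without Banhasasim-tang 1 (0.113).

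Many of the same genes stood away from the vehicle in the other low-dose groups too, measured against the same 3 vehicle libraries. TMEM160 had log2 fold changes of 1.21 in Yijung-tang and 1.14 in Banhasasim-tang, beside 0.78 in Citri Unshius Pericarpium, 1.01 in Cimicifugae Rhizoma, 0.79 in Bupleuri Radix and 0.75 in Aconiti Lateralis Radix Preparata. SAMD4A had -0.49 and -0.50 in the formulas, beside -0.41, -0.33, -0.43 and -0.32 in the same order. BCYRN1 had 1.31 and 0.59 in the formulas, beside 0.09, 0.04, -0.09 and -0.03. These genes were picked by the 6 treated libraries, which also enter the test against the 12 other low-dose libraries and favour calls there. That test called 6 of the 12 rises (C4orf48, BCYRN1, CEBPB, IL6, TMED7-TICAM2 and THY1-AS1), beside 4.64% of all genes higher. It called 2 of the 12 falls (SAMD4A and HSPD1P11), beside 4.52% of all genes lower, and all 8 calls kept their sign. SAMD4A was thus lower than vehicle in every extract and, by a smaller margin, lower in set 7 than in the others (log2 -0.12 ± 0.032, adjusted p = 0.00888). TMEM160 was not called there (log2 0.34 ± 0.140, adjusted p = 0.119), nor was FGD4 (-0.12 ± 0.067, adjusted p = 0.261).

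**Figure D2:**
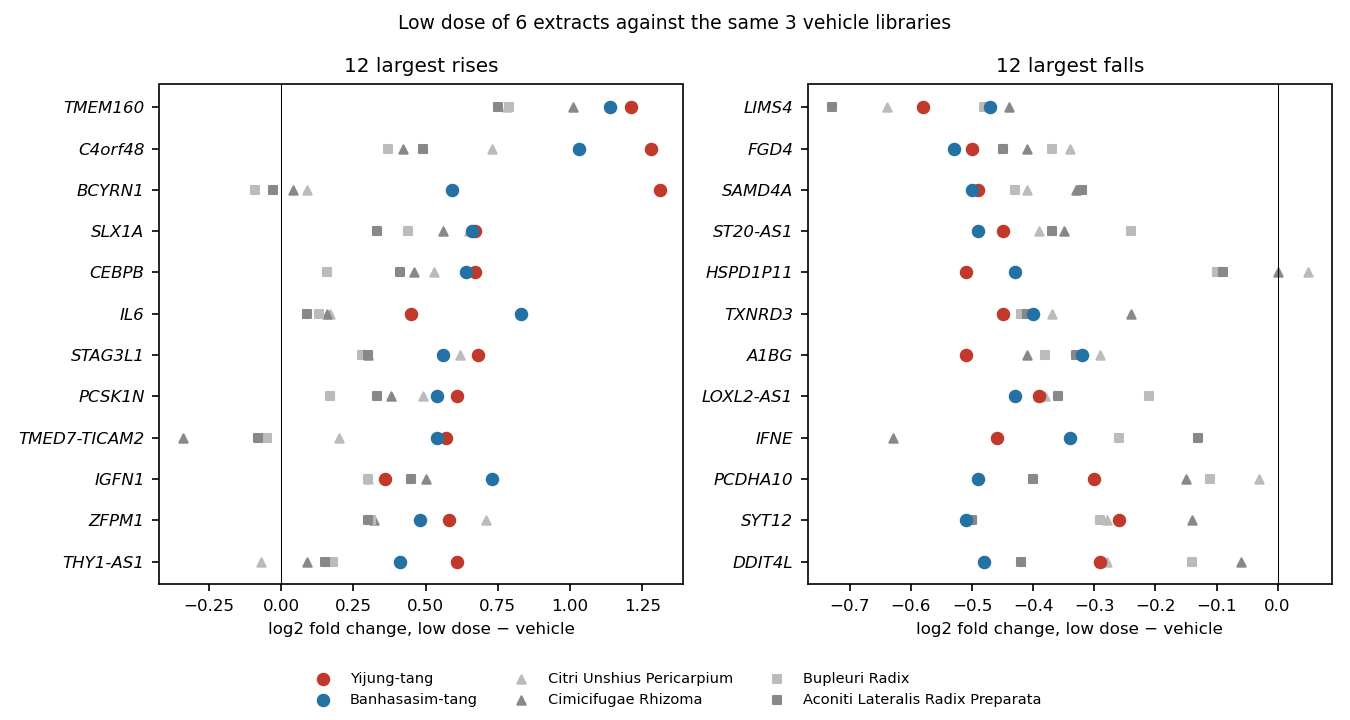
Log2 fold change of the low dose against the same 3 vehicle libraries for the 12 largest rises and 12 largest falls of the set 7 formulas. Red and blue points are Yijung-tang and Banhasasim-tang, grey points are the 4 extracts of sets 5 and 6. BCYRN1 and IL6 are set apart from the grey points, and SAMD4A and FGD4 have all 6 groups at -0.32 or lower.

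In the comparisons with vehicle and with the other low doses, 318 genes were called higher and 425 lower in both. Of these, 34 higher and 53 lower had all 6 treated libraries beyond all 3 vehicle and all 12 other low-dose libraries. These counts cover only genes with a symbol, not mitochondrially encoded, and with a mean of at least 5 CPM in the highest group. They were chosen by these values, so their tests describe them and lend no further support. The largest rises among them were BCYRN1, C4orf48, KRT10, PSENEN, TBCA and RPL35A. TBCA (chr5:77691166-77868780), a chaperone that helps fold tubulin, had 111, 113 and 110 CPM in Yijung-tang and 112, 106 and 103 CPM in Banhasasim-tang, against 88.9, 88.1 and 84.0 CPM in vehicle. In the 12 other low-dose libraries it lay between 80.9 and 97.3 CPM, with a median of 86.3 CPM. Its log2 difference was 0.33 ± 0.043 from vehicle (adjusted p = 9.59e-07) and 0.31 ± 0.029 from the other low doses (adjusted p = 3.78e-10). PSENEN, a subunit of the gamma-secretase that cuts APP and Notch, had 52.5, 52.2 and 48.9 CPM in Yijung-tang and 50.4, 48.4 and 48.2 CPM in Banhasasim-tang, against 38.3, 36.3 and 41.9 CPM in vehicle (log2 0.37 ± 0.086, adjusted p = 0.00342). CEBPB, IL6, ICAM1, C3, SOD2, KRT10, PSENEN, RPL35A, USP34, SEMA5A and PFKFB4 lie over a gene on the other strand, whose reads cannot be told apart from theirs where strand was not used. The keratin gene KRT10 was 0.42 ± 0.073 log2 higher than in the other low doses (adjusted p = 9.9e-05), and RPL35A, a protein of the large ribosomal subunit, 0.28 ± 0.046 higher (adjusted p = 5.69e-05). Against vehicle, the call of KRT10 was lost without vehicle library 1 (adjusted p = 0.0589) and that of RPL35A without vehicle library 1 or 2 (0.0768 and 0.0614).

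Among the largest falls in that pattern were ZNF616, ZBED6, BLTP1, USP34 and SEMA5A. BLTP1, a bridge-like lipid transfer protein, had 97.4, 85.6 and 93.7 CPM in Yijung-tang and 102, 100 and 99.2 CPM in Banhasasim-tang, against 110, 108 and 109 CPM in vehicle. The 12 other low-dose libraries lay with the vehicle, between 106 and 112 CPM. Its log2 difference was -0.18 ± 0.032 from vehicle (adjusted p = 0.000224) and -0.18 ± 0.023 from the other low doses (adjusted p = 2.83e-07). USP34, a large deubiquitinase, had 152, 137 and 150 CPM in Yijung-tang and 147, 149 and 149 CPM in Banhasasim-tang, against 175, 167 and 168 CPM in vehicle (log2 -0.21 ± 0.028, adjusted p = 2.19e-06). SEMA5A, a semaphorin of axon guidance, had 205, 199 and 209 CPM in Yijung-tang and 210, 211 and 214 CPM in Banhasasim-tang, against 245, 243 and 233 CPM in vehicle (log2 -0.21 ± 0.031, adjusted p = 1.42e-05). None of these ranges overlapped. ZNF616, a zinc-finger gene, lost its call against vehicle without vehicle library 1 or 2 (adjusted p = 0.138 and 0.297), without Yijung-tang 1, 2 or 3 (0.0569, 0.0597 and 0.0602) and without Banhasasim-tang 1 or 3 (0.0711 and 0.0604). ZBED6 lies inside ZC3H11A and its reads are uncertain.

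**Figure D3:**
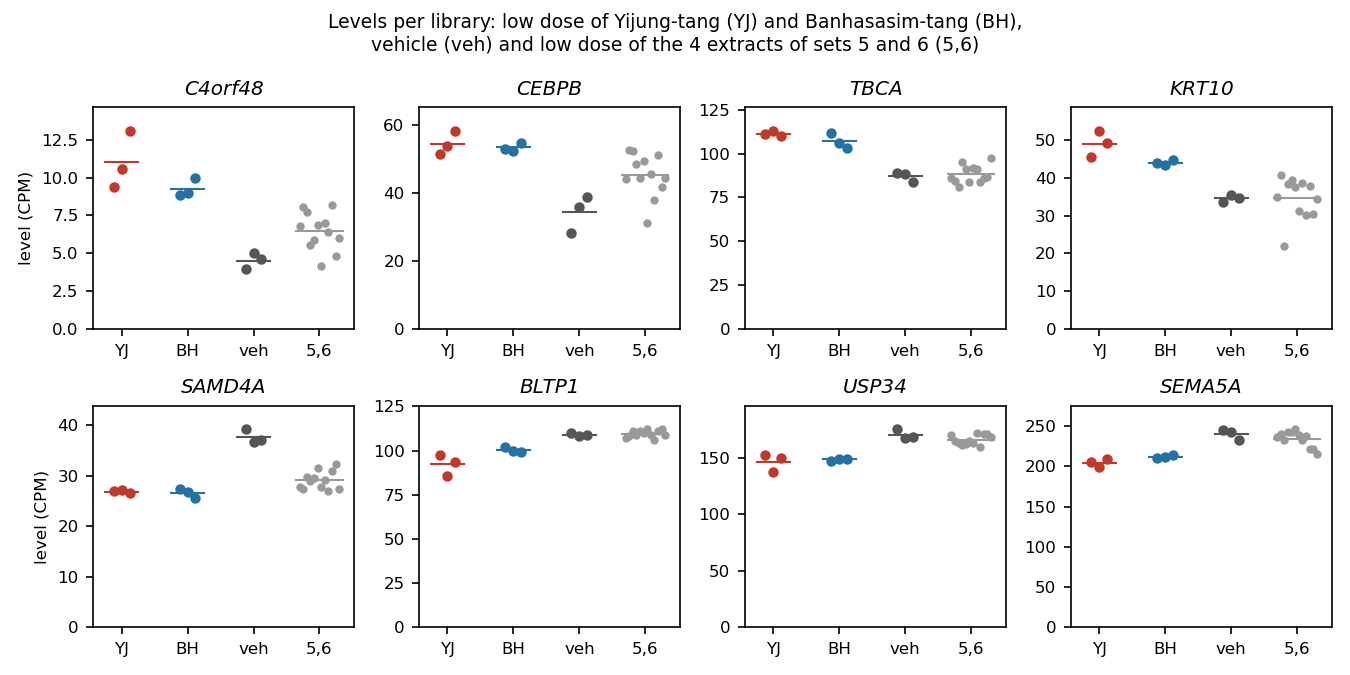
Level in CPM of 8 genes in each low-dose library of Yijung-tang (YJ, red), Banhasasim-tang (BH, blue), in each vehicle library (veh, dark grey) and in each of 12 low-dose libraries of sets 5 and 6 (5,6, light grey), with group means as lines. For TBCA, KRT10, BLTP1, USP34 and SEMA5A the other low doses sit near or nearer to the vehicle, while for SAMD4A they sit near the set 7 libraries.

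Between high and low dose, the share of all genes called was 21.7% for Yijung-tang and 6.67% for Banhasasim-tang. Of the 12 genes of this pattern, 4 were called for Yijung-tang, BCYRN1 and ZBED6 higher and RPL35A and SEMA5A lower at the high dose, and 1, SEMA5A, was lower for Banhasasim-tang, beside 3.58% of all genes lower. TBCA averaged 110 CPM at the medium and 120 CPM at the high dose of Yijung-tang, and 104 and 105 CPM at those doses of Banhasasim-tang, all above the vehicle. The high dose did not differ from the low dose for TBCA (log2 0.10, adjusted p = 0.114 for Yijung-tang and -0.02, adjusted p = 0.876 for Banhasasim-tang) beyond the test's threshold. SEMA5A was lower still at the high dose, with -0.44 log2 for Yijung-tang (adjusted p = 2.75e-13) and -0.33 for Banhasasim-tang (adjusted p = 1.75e-09).

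The mitochondrial genome gave the group with the largest share of calls. Of its 13 protein-coding genes, which encode subunits of the respiratory chain and ATP synthase, 10 rose against vehicle and none fell, beside 4.33% of all genes higher and 5.4% lower. Their median log2 fold change was 0.42, beside 0.001 for all genes. MT-CO3, a subunit of cytochrome c oxidase, had 6396, 6434 and 5925 CPM in Yijung-tang and 5952, 5164 and 5541 CPM in Banhasasim-tang, against 4490, 4300 and 4316 CPM in vehicle (log2 0.43 ± 0.073, adjusted p = 9.17e-05). MT-ND3, a subunit of complex I, had 1442, 1541 and 1386 CPM in Yijung-tang and 1494, 1307 and 1331 CPM in Banhasasim-tang, against 851, 835 and 1003 CPM in vehicle (log2 0.66 ± 0.114, adjusted p = 0.000126). Neither gene's groups overlapped. Of 30 nuclear genes of oxidative phosphorylation, none was called against vehicle, and their median was 0.02. All mitochondrial genes together took 5.99 to 6.82% of counts in the treated libraries, 5.03 to 5.29% in vehicle, and 5.12 to 7.56% in the 12 other low-dose libraries. Against these other low doses, 9 of the 13 mitochondrial and 5 of the 30 nuclear genes were higher and none lower, beside 4.64% of all genes higher, although the groups' total mitochondrial shares overlap. The count of 10 was 4 without vehicle library 1 and 4 without vehicle library 2, with medians of 0.41 and 0.39, and 5 with an offset for exon length and GC content. Yijung-tang alone had 7 of the 13 higher than vehicle and Banhasasim-tang 4, and none differed between the formulas.

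Of 21 heat shock chaperones, 8 were higher than in vehicle and none lower, beside 4.33% of all genes higher, and 13 were not called. The median of the list was 0.09 log2. FKBP4, a co-chaperone of HSP90, had 172, 175 and 175 CPM in Yijung-tang and 186, 189 and 173 CPM in Banhasasim-tang, against 151, 153 and 152 CPM in vehicle (log2 0.23 ± 0.025, adjusted p = 1.73e-08). It was also above the other low doses by 0.13 ± 0.017 (adjusted p = 7.8e-07), with 7 of the 21 genes higher there, beside 4.64% of all genes. HSP90AA1, the inducible HSP90, rose by 0.19 ± 0.028 (adjusted p = 1.16e-05). HSPA1A, an inducible HSP70 whose reads are shared with its near-identical copy HSPA1B, rose by 0.23 ± 0.043 (adjusted p = 0.00025), and was 0.00 ± 0.029 from the other low doses (adjusted p = 0.951). Of 18 chaperones of the endoplasmic reticulum, 4 were higher and 1 lower than in vehicle, and the higher ones included calreticulin (CALR, 0.14 ± 0.026, adjusted p = 0.000368).

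Of 30 genes of glycolysis and hypoxia, 6 were higher and none lower, beside 4.33% of all genes higher, the share that also stands beside the other counts of this paragraph. PFKFB4, which makes the activator of phosphofructokinase, had 34.2, 37.5 and 32.9 CPM in Yijung-tang and 39.4, 37.1 and 38.9 CPM in Banhasasim-tang, against 29.5, 26.6 and 27.4 CPM in vehicle (log2 0.40 ± 0.046, adjusted p = 8e-08). VEGFA, the angiogenic growth factor, rose by 0.15 ± 0.027 (adjusted p = 0.000203). Of 25 immediate early genes, 4 were higher and none lower, and 2 were higher without vehicle library 2. EGR1, a zinc-finger factor induced within minutes of a stimulus, had 32.8, 27.6 and 28.0 CPM in Yijung-tang and 23.9, 23.1 and 24.3 CPM in Banhasasim-tang, against 18.5, 17.9 and 21.7 CPM in vehicle (log2 0.45 ± 0.087, adjusted p = 0.000432). For EGR1 the difference from the other low doses was 0.16 ± 0.057 and missed the threshold (adjusted p = 0.0598). STAT2 and XAF1 were among 3 of 35 interferon-response genes that rose, by 0.26 ± 0.049 (adjusted p = 0.000411) and 0.38 ± 0.077 (adjusted p = 0.000822). NEAT1, the scaffold RNA of paraspeckles and 1 of 3 of 11 nuclear noncoding RNAs that rose, was 0.34 ± 0.063 higher than in vehicle (adjusted p = 0.000318), the 1 of the 3 that was left without vehicle library 1 or 3 or Banhasasim-tang library 3, and -0.03 ± 0.044 from the other low doses (adjusted p = 0.755).

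Of 25 genes that make or take up cholesterol under SREBP2, 5 were lower and none higher, beside 5.4% of all genes lower, and 20 were not called. The median of the list was -0.04 log2. HMGCS1, the enzyme that makes HMG-CoA, had 44.8, 48.9 and 49.9 CPM in Yijung-tang and 46.4, 49.6 and 48.9 CPM in Banhasasim-tang, against 61.4, 58.8 and 56.8 CPM in vehicle (log2 -0.30 ± 0.043, adjusted p = 8.18e-06). The 4 other extracts gave -0.27, -0.20, -0.20 and -0.25 for HMGCS1 against the same vehicle libraries, and set 7 did not differ from them beyond the threshold (log2 -0.07 ± 0.031, adjusted p = 0.164). AhR targets, induced by ligands of the aryl hydrocarbon receptor, had 3 of 6 tested genes lower and none higher, among them AHRR, the receptor's repressor (log2 -0.25 ± 0.045, adjusted p = 0.000179), and CYP1B1 (-0.14 ± 0.030, adjusted p = 0.0016). The third of them, TIPARP, lost its call without vehicle library 1 (adjusted p = 0.109).

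In several other groups members were called in both directions, and in a few in 1 direction only. Over all genes, 4.33% were higher and 5.4% lower than in vehicle. Among 27 tested NRF2 targets, 4 were higher and 4 lower, and the lower ones numbered 1 without vehicle library 1 and 2 without vehicle library 3. The ferritin light chain FTL had 1299, 1316 and 1262 CPM in Yijung-tang and 1279, 1198 and 1302 CPM in Banhasasim-tang, against 1047, 969 and 1037 CPM in vehicle (log2 0.33 ± 0.046, adjusted p = 3.95e-06), while the exporter ABCC1 fell by 0.13 (SE 0.033, adjusted p = 0.00621). Among 25 tested ATF4 targets of amino acid shortage, 3 were higher, CEBPB among them, and 2 lower. SLC38A2, a transporter of neutral amino acids, had 381, 381 and 390 CPM in Yijung-tang and 383, 375 and 393 CPM in Banhasasim-tang, against 489, 460 and 466 CPM in vehicle (log2 -0.30 ± 0.048, adjusted p = 5.54e-05). Against the other low doses the ATF4 list had 2 higher and 9 lower, beside 4.52% of all genes lower. Among 15 YAP targets, 3 were higher and 4 lower, led by the matrix protein CCN1 (0.35 ± 0.047, adjusted p = 1.37e-06). Without vehicle library 1 these were 1 and 1, without vehicle library 2 or Banhasasim-tang library 2 they were 2 and 2, without vehicle library 3 they were 3 and 1, and without Yijung-tang library 2 or Banhasasim-tang library 3 they were 3 and 2. Of 35 matrix genes, 1 was higher and 6 lower, with COL12A1 at -0.15 ± 0.027 (adjusted p = 0.000173). With no filter, 3 matrix genes were higher and 2 lower. The 6 became 1 without vehicle library 1, 2 without vehicle library 2, 4 without vehicle library 3, 2 without Yijung-tang library 2 and 4 without Banhasasim-tang library 2. Of 28 mitosis genes, 1 was higher and 5 lower, and none of the lower calls was left without vehicle library 1 or 2, 1 without vehicle library 3, and 3 without Yijung-tang library 2 or 3 or Banhasasim-tang library 1 or 3. Of 30 ribosomal protein genes, 5 were higher and 1, RPS28, lower (-0.31 ± 0.052, adjusted p = 8.74e-05). The 5 became 1 without vehicle library 1 or 2 and 3 without Yijung-tang library 2 or Banhasasim-tang library 1. Clock genes (18 tested) and p53 targets (20) each had 3 lower and none higher, and splicing factors (22) 3 higher. Without vehicle library 1, each of these counts of 3 was 1. The count for p53 targets was also 1 without vehicle library 2 or 3, Yijung-tang library 2 or Banhasasim-tang library 1. In the 24 remaining lists, no more than 2 genes were called in either direction.

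A few cell type markers were also called. Of 59 markers in 7 lists, 32 were tested, none of them from the erythroid list. Of these 32, 1 was higher and 3 lower than in vehicle, beside 4.33% of all genes higher and 5.4% lower. The higher one was CD68, a lysosomal protein of macrophages (0.21 ± 0.063, adjusted p = 0.022), and the lower ones were SYT1, PDGFRA and KRT18. KRT18, a keratin of simple epithelia that SW1783 also expresses, had 187, 188 and 192 CPM in Yijung-tang and 173, 178 and 168 CPM in Banhasasim-tang, against 229, 220 and 229 CPM in vehicle (log2 -0.32 ± 0.037, adjusted p = 7.85e-08). The summed level of the 3 tested macrophage markers (PTPRC, CD68 and CSF1R) ran over 172 to 188 CPM in Yijung-tang, 175 to 188 CPM in Banhasasim-tang and 155 to 163 CPM in vehicle, and over 151 to 194 CPM in the 12 other low-dose libraries. CD68 made up most of this sum, and for PTPRC and CSF1R the treated and vehicle ranges overlapped. The part of these markers in the results was not tested. TYROBP was at 0 in all 9 libraries, and AIF1 and CX3CR1 did not pass 0.0506 CPM. The epithelial markers EPCAM, CDH1 and KRT5 were also at or near 0, none above 0.163 CPM. The call of CD68 was lost without vehicle library 1 or 2 or Yijung-tang library 1 (adjusted p = 0.11, 0.106 and 0.0512), and that of PDGFRA without vehicle library 2 (0.0869).

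The formulas differed from each other in few genes, and 6 of these belong to the NF-kB list (ICAM1, C3, CXCL8, SOD2, CXCL1 and CXCL5). Of 17190 genes, 4 were higher and 11 lower in Yijung-tang than in Banhasasim-tang at the low dose, 0.0873% of those tested, and 878 had an unadjusted p under 0.05. The 11 were CXCL1, CXCL5, CXCL8, IL32, ICAM1, C3, SOD2, C1QTNF1, NFE2L3, GPRC5B and ANKRD27, and the 4 were BCYRN1, ITGB4, HMOX1 and SLC1A1. Since both formulas are in set 7, the code set does not enter this comparison. The count of 15 was 6 without Yijung-tang library 1 or Banhasasim-tang library 2, 7 without Yijung-tang library 2 and 9 without Yijung-tang library 3, and 23 without the pair of set 5 libraries named above.

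CXCL8 (ENSG00000169429, chr4:73740506-73743716), the main chemokine for neutrophils, had 4.40, 4.64 and 4.82 CPM in Yijung-tang, against 8.43, 10.9 and 8.85 CPM in Banhasasim-tang. The vehicle libraries, with 4.48, 5.13 and 5.26 CPM, lay with Yijung-tang. The log2 difference between the formulas was -1.02 ± 0.107 (adjusted p = 1.25e-08). ICAM1 (ENSG00000090339, chr19:10270835-10286615), which binds leukocyte integrins, had 58.9, 51.5 and 54.0 CPM in Yijung-tang, against 84.8, 85.2 and 78.0 CPM in Banhasasim-tang. The vehicle, at 53.8, 54.6 and 59.2 CPM, again lay with Yijung-tang, and the formulas differed by -0.59 ± 0.049 (adjusted p = 9.82e-12). IL32, a cytokine that induces other cytokines, had 4.57, 4.72 and 4.40 CPM in Yijung-tang, against 8.92, 8.50 and 7.53 CPM in Banhasasim-tang (log2 -0.86 ± 0.097, adjusted p = 4.58e-08). C3, the central complement protein, had 54.5, 51.1 and 49.4 CPM in Yijung-tang, against 74.9, 73.3 and 67.5 CPM in Banhasasim-tang (log2 -0.48 ± 0.051, adjusted p = 1.94e-08). SOD2 had 112, 113 and 117 CPM in Yijung-tang, against 151, 161 and 148 CPM in Banhasasim-tang (log2 -0.43 ± 0.058, adjusted p = 6.48e-06). In each of these 5 genes the ranges of the formulas were apart, which the rule that named them required. Their calls held without any of the 6 libraries. CXCL1 and CXCL5 stood at or under 1.48 CPM in all 9 libraries, with CXCL1 at 0.0672, 0.0411 and 0.208 CPM in Yijung-tang, against 0.524, 0.918 and 0.332 CPM in Banhasasim-tang.

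Sequences upstream of 5 of these genes are shown because they were the ones among the 11 with the letters of a narrow NF-kB type motif. The genes and the search were chosen after the values were seen. Each line gives the 250 bases before the transcription start from RefSeq on GRCh38.p14, 5′ to 3′ on the gene's strand. Matches to GGNNTTNCC on either strand are in capitals. The regions are chr4:73740319-73740568 (plus strand) for CXCL8, chr4:73869143-73869392 (plus) for CXCL1, chr4:73998678-73998927 (minus) for CXCL5, chr16:3065153-3065402 (plus) for IL32 and chr19:10270870-10271119 (plus) for ICAM1.
CXCL8: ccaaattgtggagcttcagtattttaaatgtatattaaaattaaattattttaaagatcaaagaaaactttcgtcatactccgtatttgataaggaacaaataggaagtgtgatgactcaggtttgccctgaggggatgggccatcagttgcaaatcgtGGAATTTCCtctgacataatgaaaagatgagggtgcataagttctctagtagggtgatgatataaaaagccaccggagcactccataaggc
CXCL1: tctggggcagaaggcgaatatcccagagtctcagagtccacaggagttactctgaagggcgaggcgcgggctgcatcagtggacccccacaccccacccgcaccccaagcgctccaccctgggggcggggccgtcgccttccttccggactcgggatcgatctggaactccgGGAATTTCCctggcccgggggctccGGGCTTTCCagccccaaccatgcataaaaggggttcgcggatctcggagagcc
CXCL5: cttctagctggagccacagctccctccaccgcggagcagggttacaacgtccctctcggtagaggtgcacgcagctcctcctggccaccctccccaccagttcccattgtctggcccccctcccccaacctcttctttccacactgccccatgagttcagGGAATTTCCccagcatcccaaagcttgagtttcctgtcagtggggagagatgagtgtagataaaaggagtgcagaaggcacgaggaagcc
IL32: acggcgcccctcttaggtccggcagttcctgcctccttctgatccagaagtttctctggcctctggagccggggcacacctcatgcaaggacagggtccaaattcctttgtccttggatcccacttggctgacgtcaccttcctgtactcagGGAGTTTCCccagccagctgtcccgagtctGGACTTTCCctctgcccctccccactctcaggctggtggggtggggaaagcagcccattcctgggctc
ICAM1: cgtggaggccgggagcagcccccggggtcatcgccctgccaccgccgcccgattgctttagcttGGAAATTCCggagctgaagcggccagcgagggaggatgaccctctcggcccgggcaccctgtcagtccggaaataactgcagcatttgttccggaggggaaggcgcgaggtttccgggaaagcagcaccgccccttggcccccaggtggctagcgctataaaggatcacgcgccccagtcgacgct

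The matches began 91 bases before the start in CXCL8, 78 and 53 in CXCL1, 90 in CXCL5, 98 and 68 in IL32 and 186 in ICAM1. Both strands were searched, and the match in ICAM1 reads GGNNTTNCC on the strand opposite to the one printed. GGNNTTNCC occurred in 14.8% of 27305 listed promoters of that length. Of the 11 genes, 9 had a listed promoter and 5 of these a match. SOD2, NFE2L3, GPRC5B and ANKRD27 had none in this window, and C3 and C1QTNF1 were not listed. A match is a description of letters and not a measured binding site.

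Of 25 tested genes of the NF-kB list, Banhasasim-tang had 9 higher and 2 lower than vehicle, with a median of 0.26, beside 2.62% and 3.14% of all genes. Yijung-tang had none higher and 2 lower, with a median of -0.03, beside 2.72% and 3.65% of all genes. In the direct comparison the 6 named above were lower in Yijung-tang, none was higher and 19 were not called, beside 0.064% and 0.0233% of all genes. In the mean of both formulas 6 were higher and 2 lower than vehicle, beside 4.33% and 5.4% of all genes. Against the 12 other low-dose libraries 14 were higher and none lower, beside 4.64% and 4.52% of all genes. NFKBIA, the inhibitor that NF-kB itself induces, had 45.4, 44.4 and 43.5 CPM in Yijung-tang and 51.0, 52.7 and 48.5 CPM in Banhasasim-tang, against 41.3, 41.0 and 40.9 CPM in vehicle (log2 0.21 ± 0.048, adjusted p = 0.00329). Each treated library was above the vehicle, and the difference between the formulas was -0.19 (adjusted p = 0.307). PTGS2, the inducible cyclooxygenase, went the other way with 75.6, 75.5 and 77.8 CPM in Yijung-tang and 71.9, 75.0 and 81.4 CPM in Banhasasim-tang, against 96.9, 97.6 and 104 CPM in vehicle (log2 -0.38 ± 0.047, adjusted p = 2.13e-07). The 4 other extracts had -0.36, -0.39, -0.45 and -0.66 for PTGS2 against the same vehicle, and set 7 differed from them by 0.08 ± 0.034 (adjusted p = 0.115).

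The genes lower in Yijung-tang than in Banhasasim-tang at the low dose were, except ANKRD27, also raised by the high dose of Banhasasim-tang relative to its low dose. CXCL8 averaged 28.3 CPM at its medium and 106 CPM at its high dose, a high-minus-low difference of 3.49 log2 (adjusted p = 4.23e-37). ICAM1 averaged 131 and 223 CPM at those doses (1.43, adjusted p = 2.18e-29), and SOD2 229 and 426 CPM (1.47, adjusted p = 3.3e-26). All 25 tested genes of the NF-kB list were raised by the high dose of Banhasasim-tang relative to its low dose, beside 3.08% of all genes, and 12 were higher and 1 lower for Yijung-tang, beside 10.2% and 11.5% of all genes. These dose comparisons share the low-dose libraries with the ones above. For Yijung-tang, ICAM1 averaged 54.9 and 60.2 CPM at the medium and high dose and its dose difference missed the threshold (0.13, adjusted p = 0.0536), while CXCL8 averaged 6.25 and 12.6 CPM (1.45, adjusted p = 2.05e-15). IL6 rose with both, by 0.56 for Yijung-tang (adjusted p = 0.000987) and 1.71 for Banhasasim-tang (adjusted p = 9.48e-18).

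The 4 genes higher in Yijung-tang had different relations to the vehicle. HMOX1 (chr22:35380361-35394214), the enzyme that degrades heme, had 66.6, 73.0 and 73.7 CPM in Yijung-tang, against 58.0, 61.4 and 60.1 CPM in Banhasasim-tang (log2 0.25 ± 0.045, adjusted p = 0.0039). The vehicle libraries, at 57.8, 56.8 and 58.8 CPM, lay with or just below Banhasasim-tang. At the medium and high dose of Yijung-tang HMOX1 averaged 133 and 212 CPM (high minus low 1.58, adjusted p = 1.56e-32), and at those of Banhasasim-tang 59.8 and 65.1 CPM (0.12, adjusted p = 0.107). BCYRN1 had 13.5, 15.0 and 12.2 CPM in Yijung-tang, against 9.70, 7.27 and 7.69 CPM in Banhasasim-tang (log2 0.72 ± 0.148, adjusted p = 0.0226). Both formulas were above the vehicle, which had 5.34, 5.30 and 5.72 CPM. ITGB4, an integrin of hemidesmosomes, and SLC1A1, a glutamate transporter, were lower than vehicle in Banhasasim-tang. ITGB4 averaged 31.5 CPM in Yijung-tang and 25.3 CPM in Banhasasim-tang, and its vehicle mean was 34.2 CPM. SLC1A1 averaged 47.9 CPM in Yijung-tang and 41.8 CPM in Banhasasim-tang, and its vehicle mean was 49.4 CPM.

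Of the 15 calls, 10 were lost without at least 1 library. HMOX1 lost its call without Yijung-tang 2 or 3 or Banhasasim-tang 1 (adjusted p from 0.0674 to 0.0776), BCYRN1 without Yijung-tang 1 or 2 or Banhasasim-tang 2 or 3 (0.131 to 0.247), and CXCL1 without Yijung-tang 1 or 2 or Banhasasim-tang 2 (0.11 to 0.215). CXCL5 lost its call without Yijung-tang 1 or 2 or Banhasasim-tang 1 or 2 (0.152 to 0.394), C1QTNF1 without Yijung-tang 1 or 3 or Banhasasim-tang 1 or 2 (0.0633 to 0.281), and GPRC5B without Yijung-tang 1 or 2 or Banhasasim-tang 2 or 3 (0.0504 to 0.315). NFE2L3 lost its call without any Yijung-tang library or Banhasasim-tang 2 or 3 (0.113 to 0.445), and SLC1A1 without any Yijung-tang library or Banhasasim-tang 1 or 2 (0.0997 to 0.445). ITGB4 (0.0504 to 0.242) and ANKRD27 (0.113 to 0.206) lost theirs without any of the 6.

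**Figure D4:**
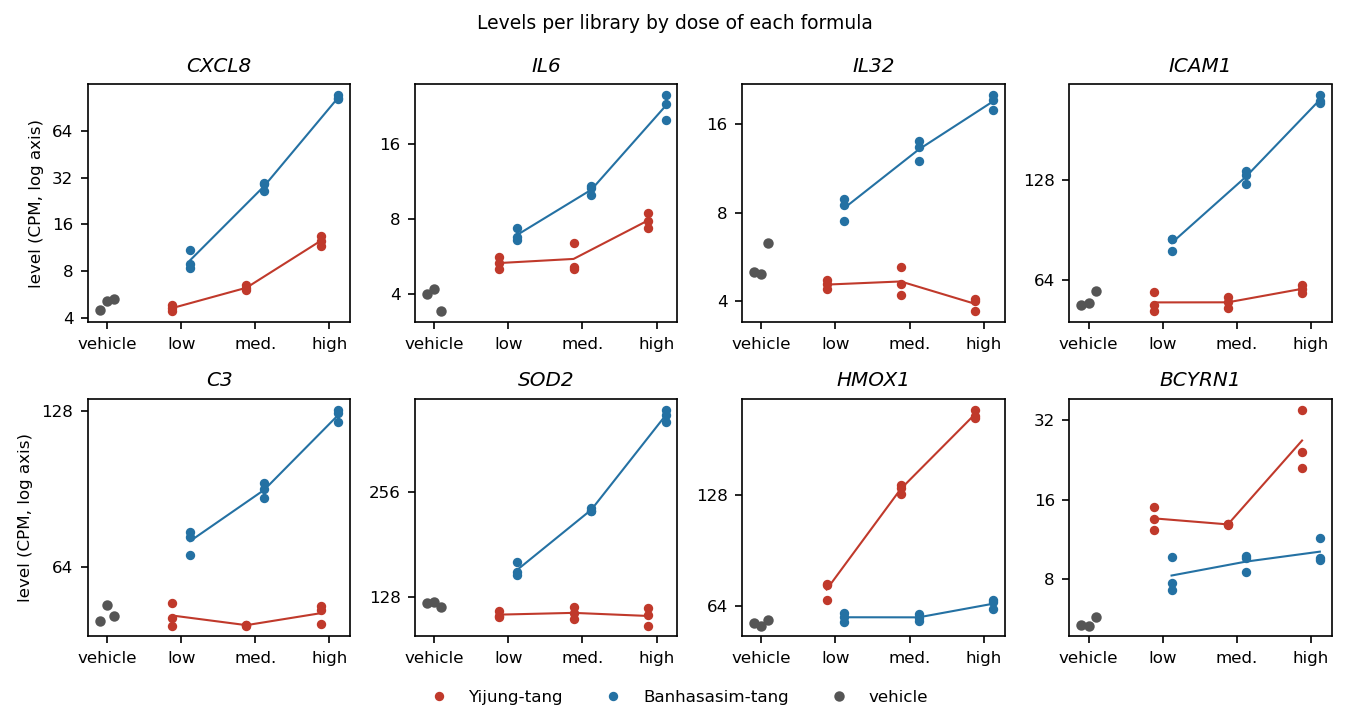
Level in CPM (log axis) in each library of the vehicle and of the low, medium and high dose of Yijung-tang (red) and Banhasasim-tang (blue), with lines through the means. CXCL8, IL32, ICAM1, C3 and SOD2 part at the low dose and climb with Banhasasim-tang, and HMOX1 climbs with Yijung-tang.

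The shift in the mean of both formulas followed gene length and base composition. Genes lower than in vehicle had a median exon length of 7782 bases and genes higher one of 3695, beside 4397 for all 17084 genes with a length. Median GC content of the longest transcript was 42.5% in the lower and 53.4% in the higher genes, beside 48.2% for all. Genes were put into 5 equal bins. In the bin with the longest exons 13.9% of genes were lower and 2.58% higher, and in the bin with the shortest 1.08% were lower and 4.65% higher. The median log2 fold change was 0.035 in the shortest and -0.036 in the longest bin. The gradient was present without the vehicle, at 0.046 and -0.027 against the other low doses. Between the formulas it was 0.028 and -0.019 with length, and no larger than 0.004 in size in any bin of GC content. From the lowest to the highest bin of GC content, both formulas ran from -0.043 to 0.034 against vehicle. Citri Unshius Pericarpium low ran from -0.040 to 0.068 against the same vehicle, with -0.004 and -0.008 in the shortest and longest bins. Cimicifugae Rhizoma, Bupleuri Radix and Aconiti Lateralis Radix Preparata stayed between -0.011 and 0.016 in every bin of GC content. The longest bin took 27.8 to 29% of counts in the treated libraries, against 29.5 to 29.8% in vehicle and 28.8 to 29.6% in the other low doses. With an offset for exon length and GC content in each library, a setting added after seeing the data, 723 genes were higher and 812 lower than in vehicle, and 683 were higher and 591 lower than in the other low doses.

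**Figure D5:**
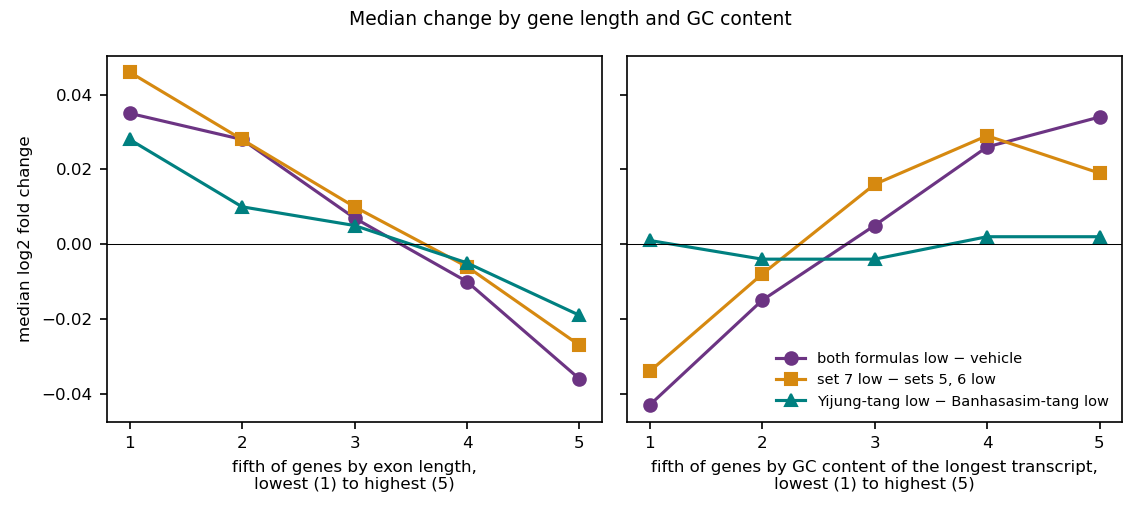
Median log2 fold change of genes in 5 equal bins of exon length (left) and of GC content (right). Both formulas against vehicle and set 7 against sets 5 and 6 run downwards with length. With GC content the first of them runs upwards throughout and the second to the fourth bin, while Yijung-tang against Banhasasim-tang changes with length and stays within 0.004 of 0 with GC content.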

How the data were processed

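RNA from SW1783 cells was sequenced with a directional mRNA kit and paired ends, per the labels' protocols. The authors deposited expected counts per gene as RSEM estimates them, and FastQC 0.11.9, Trim Galore 0.6.5, STAR 2.7.3a, RSEM 1.3.3 and the builds hg38 and GRCh38 are named in the submitters' processing notes. For annotation release, strand setting and filters on reads, values were not given in the sources used here. The table held 60675 genes in 60 libraries, and 9.22% of its values were not whole.

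Expected counts were rounded to whole numbers. Genes were kept by edgeR's filterByExpr, and 17190 remained. edgeR 4.0.16 (R 4.3.3) fitted its quasi-likelihood model with TMM scaling to the 57 libraries of the 19 groups with 3 replicates, which share one estimate of the spread, without a replicate block. Adjusted p-values are Benjamini-Hochberg values over all tested genes, a call is one under 0.05, SE is the size of the log2 fold change divided by the root of F, and levels are TMM-scaled CPM unless stated. The code was tested on simulated data. Replicates of these groups differed by more than sampling noise (chi-square per degree of freedom from 2.09 to 3.67 over genes with at least 20 counts).

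Named genes came from called genes with a mean of at least 5 CPM: the 12 largest rises and falls with no overlap between treated and vehicle libraries, up to 6 each way between the formulas, and the 6 largest each way with all treated libraries beyond the vehicle and the other low doses. All 15 called between the formulas and examples of each list were also named. The libraries, the 43 gene lists and these rules were chosen with earlier results of these data known. Alternatives were no filter, DESeq2 size factors, DESeq2 1.42.0, the compared groups alone, a replicate block, no libraries that stood apart, single libraries left out and, added after seeing the data, an offset for exon length and GC content. A few genes that these rules name are not reported here.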

Additional observations from a re-analysis of the deposited data

Results flagged for a closer look

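At the low dose, the effects of the formulas against the shared vehicle differed from each other in 15 genes by a direct test (edgeR, adjusted p under 0.05), with 3 libraries in each group. Lower in Yijung-tang than in Banhasasim-tang were CXCL1 (log2 -2.36), CXCL5 (-1.31), CXCL8 (-1.02), IL32 (-0.86), ICAM1 (-0.59), C3 (-0.48), SOD2 (-0.43), C1QTNF1 (-0.32), NFE2L3 (-0.23), GPRC5B (-0.21) and ANKRD27 (-0.18). Higher in Yijung-tang were BCYRN1 (0.72), ITGB4 (0.32), HMOX1 (0.25) and SLC1A1 (0.20). CXCL1 and CXCL5 rest on low counts, and 10 of the 15 lost their call without at least 1 library.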

How the results depend on the processing

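None of the 152 single-gene results changed sign under the alternatives run, but with no filter the calls against vehicle were mostly higher, at 58.9% for both formulas, against 44.5% with the filter, and 67.9% against 50.6% for the other low doses. Leaving out 1 library at a time gave 656 to 1579 called genes for both formulas against vehicle, 369 to 819 for Yijung-tang, 425 to 709 for Banhasasim-tang, 6 to 11 between the formulas, 959 to 1899 against the other low doses, 2887 to 3627 between high and low dose of Yijung-tang and 784 to 943 between those of Banhasasim-tang. Without the 2 libraries that stood apart the counts were 1658 for Yijung-tang and 1570 for Banhasasim-tang against vehicle, 23 between the formulas and 2396 against the other low doses, and with no filter 117 genes were called between the formulas. The cause was not tested. With the replicate block the counts were 1821 for both formulas, 1286 for Yijung-tang, 1184 for Banhasasim-tang, 19 between the formulas and 1771 against the other low doses. The main fit did not take the numbers to pair the samples. Correlations of the 9 same-numbered pairs ran from -0.13 to 0.26 and 2 passed 0.1. Both of these were between the low doses of the formulas. Same-numbered pairs there had 0.26, 0.16 and 0.07, and different-numbered pairs ran from -0.21 to 0.06. With the vehicle, same-numbered pairs ran from -0.13 to 0.07 and different-numbered pairs from -0.11 to 0.14. The main test between the formulas thus leaves out a relation by number seen in these values. What the numbers stand for was not tested. Of 152 single-gene results, 12 lost their call with the length and GC offset, 18 with no filter and none with DESeq2 size factors. Differences of genes under 1 CPM, such as CXCL1, are limited by depth.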

Other observations

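Dose comparisons gave further values for AhR targets and endoplasmic reticulum chaperones. All 6 tested AhR targets were raised by the high dose of Yijung-tang relative to its low dose, with a median log2 difference of 0.51, beside 10.2% of all genes, and 2 were for Banhasasim-tang, beside 3.08%. Of 18 endoplasmic reticulum chaperones, none was higher and 15 were lower at the high dose of Yijung-tang (median -0.18), beside 11.5% of all genes lower, while 6 were higher and none lower for Banhasasim-tang (median 0.09), beside 3.08% of all genes higher. Both dose comparisons use the low-dose libraries described above, and the difference between the formulas' dose effects was not tested.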
